A study of Mus musculus with 8 samples.

Results

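The genes described here encode the enzymes and mitochondrial transporters that make heme. They were taken by name, in pathway order, as 9 of the 52636 genes in the count matrix: the enzymes Alas2, Alad, Uros, Urod, Cpox, Ppox and Fech, and the transporters Slc25a38 and Tmem14c. RNAseq was done on S0 cells from E12.5 mouse fetal livers, with 4 WT and 4 DKO libraries. DKO embryos were Vps13a-/- and Vps13c-/-, and WT embryos carried neither deletion. Both lines were kept on C57BL/6J, and the Vps13a allele was deleted in the germ line with a β-actin-Cre transgene, so that the loss was not limited to blood cells. DKO embryos came from intercrosses of Vps13a+/-/Vps13c-/- parents, which cannot give WT littermates. S0 cells were sorted as live, lineage-negative cells without surface CD71 (the transferrin receptor) or Ter119, the earliest gate of the fetal liver erythroid series. VPS13A and VPS13C are bridge-like lipid transfer proteins at membrane contacts of mitochondria, lysosomes and other organelles.

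Heme is an iron-containing porphyrin that fills the oxygen-binding pocket of hemoglobin. Its synthesis begins in the mitochondrial matrix, where 5-aminolevulinate synthase joins glycine to succinyl-CoA, continues in the cytosol, and returns to the mitochondrion, where the porphyrin ring is oxidised and receives iron. The first enzyme exists as a housekeeping form, ALAS1, and an erythroid form, ALAS2, and the switch from one to the other is a known feature of red cell maturation.

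The sequences in front of Alas2, Cpox and Slc25a38 are shown because Alas2 is the erythroid entry point of the pathway and Cpox and Slc25a38 were the members that rose in DKO. They are the bases before the RefSeq start site (GRCm38.p6, plus strand), 5′ to 3′, as far as the first annotated exon, at chrX:150547167-150547374, chr16:58669958-58670207 and chr9:120110132-120110373. Capitals mark GATAA, the core read by GATA factors, and CACCC, the core read by KLF1 and related proteins, on either strand, so that they also appear as TTATC and GGGTG. These 2 motifs do not overlap each other in the printed stretches.
Alas2: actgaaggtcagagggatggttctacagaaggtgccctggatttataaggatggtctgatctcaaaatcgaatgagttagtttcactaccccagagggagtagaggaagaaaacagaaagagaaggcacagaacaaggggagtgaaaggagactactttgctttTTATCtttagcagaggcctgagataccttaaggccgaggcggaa
Cpox: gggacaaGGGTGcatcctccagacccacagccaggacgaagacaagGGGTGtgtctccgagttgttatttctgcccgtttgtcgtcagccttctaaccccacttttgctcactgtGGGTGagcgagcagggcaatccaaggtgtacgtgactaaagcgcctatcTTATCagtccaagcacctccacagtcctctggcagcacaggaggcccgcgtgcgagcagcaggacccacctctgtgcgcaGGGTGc
Slc25a38: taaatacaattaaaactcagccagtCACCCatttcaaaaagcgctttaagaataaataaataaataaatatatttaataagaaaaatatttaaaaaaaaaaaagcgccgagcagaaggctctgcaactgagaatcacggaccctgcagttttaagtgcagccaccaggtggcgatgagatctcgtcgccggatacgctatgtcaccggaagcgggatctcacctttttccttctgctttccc
In Alas2 and in Cpox the TTATC match began 86 bases before the start site. Slc25a38 held a CACCC match 225 bases before it and no GATAA match in the 250 bases searched. Alas2 had 3 further GGGTG matches, 40, 35 and 30 bases before the RefSeq start, in bases that GENCODE places in exon 1 and that are not printed. Of the 8 members with an entry in the RefSeq promoter table, 4 held GATAA in at least 1 window (Alas2, Uros, Cpox and Tmem14c), against 22.6% of all 32851 windows of 250 bases. CACCC was found for 5 members (Alas2, Alad, Cpox, Slc25a38 and Tmem14c), against 52% of all windows. Members were counted by gene and the percentages by window, and a gene with more start sites has more windows. The counts and percentages are therefore not directly comparable. A match is a run of letters and not a measured site.

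The Alas2 mRNA also carries an iron-responsive element in its 5′ untranslated region, a hairpin through which iron regulatory proteins hold back its translation when iron is short. The element was found in exon 1 at chrX:150547459-150547484 as a bulged C, 5 paired bases, a 6-base loop beginning with CAGTG, and 5 paired bases. The loop is in capitals.
Alas2 element: tggttcgtcctCAGTGCagggcaaca
This control acts on translation, which the mRNA counts do not measure.

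The deposited counts summed to between 36981439 and 50886469 per library, and 17378 genes passed the low-count filter, among them 9 of the 9 members. Values are given as normalized counts, which are counts scaled by TMM to the mean effective library size. Genes with an adjusted p below 0.05 in edgeR's quasi-likelihood test, corrected over all genes tested, are called here. Over all genes, 1867 were called higher in DKO and 1878 lower. Vps13a ranged from 1825 to 2109 normalized counts over the WT libraries and from 607 to 1039 over the DKO libraries (log2 fold change -1.29, adjusted p = 0.00247), whereas Vps13c ranged from 504 to 664 and from 518 to 1088 (log2 fold change 0.49, adjusted p = 0.182) and so did not mark the genotype at the level of whole-gene counts. Sex-linked transcripts divided the groups as well: Xist was at 0 to 30.1 normalized counts across WT and at 62.3 in DKO replicate 3, but at 27043, 18029 and 21393 in DKO replicates 1, 2 and 4, and Ddx3y of the Y chromosome was at 2911 to 3354 in WT, 2516 in DKO replicate 3 and 9.4 to 41.0 in the other DKO libraries. Genotype and embryo sex cannot be told apart in DKO replicates 1, 2 and 4, and the place of DKO replicate 3 is given below for the called genes whose counts are given.

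Of the 9 heme genes, 2 rose in DKO, Cpox and Slc25a38, none fell, and 7 were not called. Over all genes tested 10.7% were called higher and 10.8% lower. No member passed the stricter rule that also asks for a log2 fold change above 1 or below -1, which 6.19% of all genes passed upward and 2.43% downward. DESeq2 gave the same counts of 2, 0 and 0. At an unadjusted p under 0.05, 4 members were higher in DKO (Cpox, Slc25a38, Alad and Uros) and 0 were lower. Over all 17378 genes tested, 3205 were higher and 3100 lower at that threshold. In 3 members (Cpox, Slc25a38 and Uros) every DKO library lay above every WT library, an arrangement found in 13.5% of all genes, and in 0 members did every DKO library lie below, which 14.6% of all genes did. The median log2 fold change of the 9 members was 0.24, beside 0.03 over all genes tested. In bulk RNA of this kind, fewer cells of a type and less RNA per cell cannot be told apart.

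**Figure D1:**
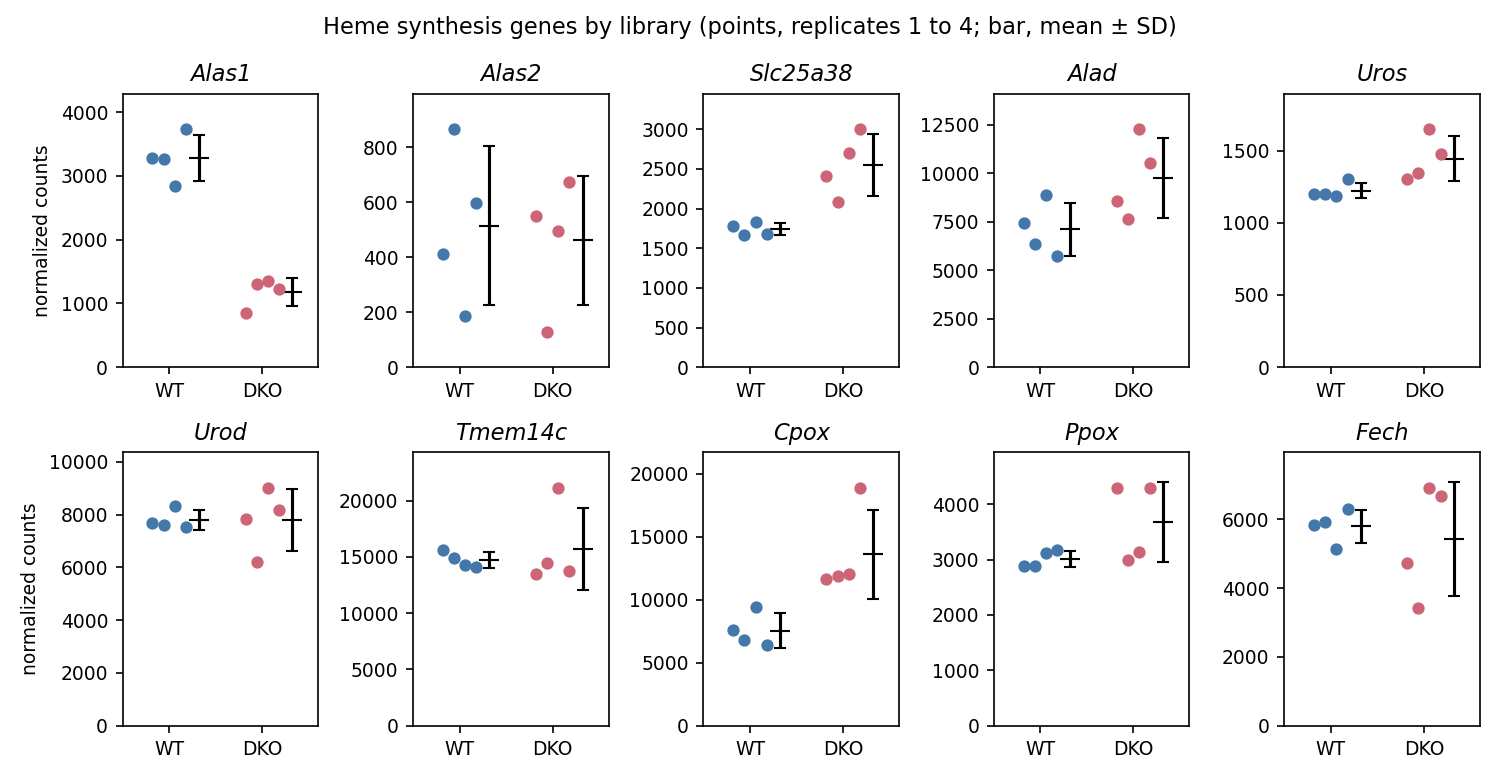
Normalized counts (vertical axes, each from 0) of Alas1 and the 9 heme genes in the 4 WT (blue) and 4 DKO (red) libraries, with the mean and SD as black bars. Slc25a38 and Cpox are higher in every DKO library than in any WT library, Alas1 is lower, and Alas2 spreads widely within both groups.

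Slc25a38 carries glycine into the mitochondrion, the first substrate of the pathway (ENSMUSG00000032519.11, plus strand of chromosome 9, 120110374 to 120124504). It had 1786, 1668, 1833 and 1686 normalized counts in WT replicates 1 to 4 and 2416, 2087, 2706 and 3001 in DKO. The lowest DKO library lay above the highest WT library, and DKO replicate 3, the DKO library with Y-linked transcripts, was among the higher ones. The difference was 0.55 on the log2 scale (SE 0.12, 95% interval 0.29 to 0.81, adjusted p = 0.012), or 1.46-fold. It was called in 15 of 15 alternative analyses, with log2 fold changes from 0.47 to 0.66.

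Alas2, the erythroid enzyme at the head of the pathway, is X-linked (ENSMUSG00000025270.13, plus strand of chromosome X, 150547375 to 150570638). It had 411, 866, 185 and 598 normalized counts across WT and 552, 128, 496 and 674 in DKO. The groups overlapped, and WT replicate 3 and DKO replicate 2 were the low ones. The log2 fold change of -0.16 (SE 0.53, adjusted p = 0.866) had a 95% interval of -1.35 to 1.04, so that a change of 2-fold in either direction lay inside it. Its sign turned when 1 library was left out, to 0.22 without WT replicate 2 and 0.15 without DKO replicate 2. Exons of Alas2 share 311 bases, 12.9% of their length, with Apex2 on the opposite strand (mean 647 normalized counts across WT and 522 in DKO), and reads there could belong to either gene.

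Alas1, the housekeeping isozyme and not one of the 9, moved in the opposite direction to Slc25a38 (ENSMUSG00000032786.16, minus strand of chromosome 9, 106233455 to 106248654). It had 3285, 3264, 2838 and 3731 normalized counts across WT and 848, 1301, 1344 and 1219 in DKO. The highest DKO library, replicate 3, lay far below the lowest WT library. The log2 fold change was -1.48 (SE 0.15, 95% interval -1.82 to -1.13, adjusted p = 0.00102), which is 0.359 of the WT level, and it was called in 15 of 15 alternatives. The mean log2 ratio of Alas2 to Alas1 counts was -2.874 in WT and -1.565 in DKO. Per kilobase of merged annotated exon (2403 bases for Alas2, 6174 for Alas1), Alas2 stood at 0.395 ± 0.216 of Alas1 in WT and at 1.07 ± 0.624 in DKO (SD, n = 4 each). The size of this per-length ratio depends on the annotated lengths. By library this ratio was 0.321, 0.681, 0.168 and 0.412 in WT and 1.67, 0.253, 0.947 and 1.42 in DKO, so that DKO replicate 2 lay among the WT values. The difference in mean log2 ratio of 1.31 gave p = 0.143 in an exact two-sided permutation test over the 70 arrangements of the libraries, in which 0.0286 is the smallest value possible.

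None of the cytosolic enzymes Alad, Uros and Urod was called with TMM scaling. Alad, which condenses aminolevulinate into the first pyrrole (ENSMUSG00000028393.10, minus strand of chromosome 4, 62509169 to 62519918), had 7436, 6365, 8878 and 5741 normalized counts across WT and 8561, 7637, 12269 and 10503 in DKO. The DKO values were shifted upward, but 2 of them lay below WT replicate 3. DKO exceeded WT by 0.46 on the log2 scale (SE 0.17, 95% interval 0.07 to 0.84, adjusted p = 0.0905). Uros, which closes the ring (ENSMUSG00000030979.13, minus strand of chromosome 7, 133686243 to 133710072), had 1201, 1200, 1187 and 1300 in WT and 1301, 1347, 1648 and 1475 in DKO. The groups did not overlap, by a margin of under 1 normalized count, and the log2 fold change of 0.24 (SE 0.11, 95% interval 0.00 to 0.48) had an adjusted p of 0.135. Under upper-quartile scaling, which moved the median of all genes by 0.11 on the log2 scale, Alad and Uros were also called (adjusted p = 0.0478 and 0.0364).

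Urod, which removes carboxyl groups from uroporphyrinogen (ENSMUSG00000028684.14, minus strand of chromosome 4, 116989965 to 116994413), was the member closest to no difference. It had 7671, 7626, 8340 and 7518 normalized counts across WT and 7824, 6222, 9022 and 8184 in DKO. DKO replicate 2 was the lowest and DKO replicate 3 the highest of all libraries. Its log2 fold change was 0.005 (SE 0.11, 95% interval -0.24 to 0.25, adjusted p = 0.982).

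Tmem14c is an inner-membrane protein of mitochondria needed for the late porphyrin precursor to reach the matrix (ENSMUSG00000021361.7, plus strand of chromosome 13, 41016292 to 41022586). It had 15614, 14891, 14299 and 14100 normalized counts across WT and 13467, 14430, 21141 and 13699 in DKO. DKO replicate 3 stood far above every other library, and 2 of the other DKO libraries were below all of WT. Its log2 fold change was 0.09 (SE 0.14, 95% interval -0.23 to 0.41, adjusted p = 0.688), and without DKO replicate 3 it was -0.08.

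Cpox makes protoporphyrinogen in the intermembrane space of the mitochondrion (ENSMUSG00000022742.5, plus strand of chromosome 16, 58670292 to 58717636), and it showed the largest difference among the 9 members. It had 7622, 6780, 9450 and 6373 normalized counts across WT and 11621, 11870, 12083 and 18899 in DKO. The DKO libraries lay above every WT library, with 3 close together, DKO replicate 3 among them, and DKO replicate 4 well above. The log2 fold change was 0.85 (SE 0.18, 95% interval 0.44 to 1.26, adjusted p = 0.0124), or 1.80-fold. It was called in 15 of 15 alternatives, with log2 fold changes from 0.65 to 0.97, the lowest of them without DKO replicate 4. The interval reaches beyond 1 on the log2 scale, but the estimate did not.

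Ppox and Fech complete the pathway. Ppox oxidises protoporphyrinogen (ENSMUSG00000062729.11, minus strand of chromosome 1, 171275990 to 171281186) and had 2884, 2878, 3110 and 3165 normalized counts across WT and 4294, 2994, 3132 and 4299 in DKO. DKO replicates 1 and 4 were high and the other 2 lay within the WT range. Its log2 fold change was 0.29 (SE 0.13, 95% interval -0.005 to 0.59, adjusted p = 0.144), and 17.5% of the exon length of Ppox is shared with B4galt3 on the opposite strand. Fech, the ferrochelatase that inserts iron (ENSMUSG00000024588.8, minus strand of chromosome 18, 64452914 to 64490251), had 5822, 5927, 5138 and 6293 in WT and 4728, 3424, 6916 and 6665 in DKO. The DKO values lay on both sides of WT, 2 below all WT libraries and 2 above. The fitted log2 fold change was -0.09 (SE 0.20, 95% interval -0.54 to 0.35, adjusted p = 0.778).

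The members differed in how far libraries of one genotype spread. Alas2 had a coefficient of variation of 56.0% in WT and 50.8% in DKO, whereas the other 8 members had 4.30% to 19.3% in WT and 10.8% to 30.5% in DKO. In 8 of 9 members the DKO libraries spread more than the WT libraries, Alas2 being the exception. The same held for 75.3% of all genes tested, whose median coefficient of variation was 14.3% in WT and 24.5% in DKO.

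Levels were compared between genes as CPM per kilobase of exon (counts scaled by the library total and the exon length). The length was that of all annotated exons of a gene merged, from 914 bases for Tmem14c to 13838 for Fech. The order of levels therefore depends on the annotation. The order in WT was Tmem14c (367), Alad (86.4), Urod (68.4), Cpox (25.8), Ppox (15.2), Slc25a38 (14.4), Fech (9.54), Uros (7.78) and Alas2 (4.90), beside a median of 2.84 over all genes tested. Alad and Urod overlapped between libraries, as did Ppox and Slc25a38, and Uros and Alas2. The other neighbours were apart in every WT library. In DKO, Tmem14c (389), Alad (118), Urod (68.6) and Cpox (46.4) came in the same order as in WT, with overlapping libraries for Urod and Cpox, Slc25a38 (21.1) stood before Ppox (18.6) with overlapping libraries, and Uros (9.16), Fech (8.91) and Alas2 (4.40) came last, each overlapping the next. Alas2 had the lowest mean level of the 9 members in both groups, but its libraries overlapped those of Uros in WT and of Fech in DKO. Alas1 stood at 12.1 in WT, between Slc25a38 and Fech, and at 4.31 in DKO, where its libraries overlapped those of Alas2.

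**Figure D2:**
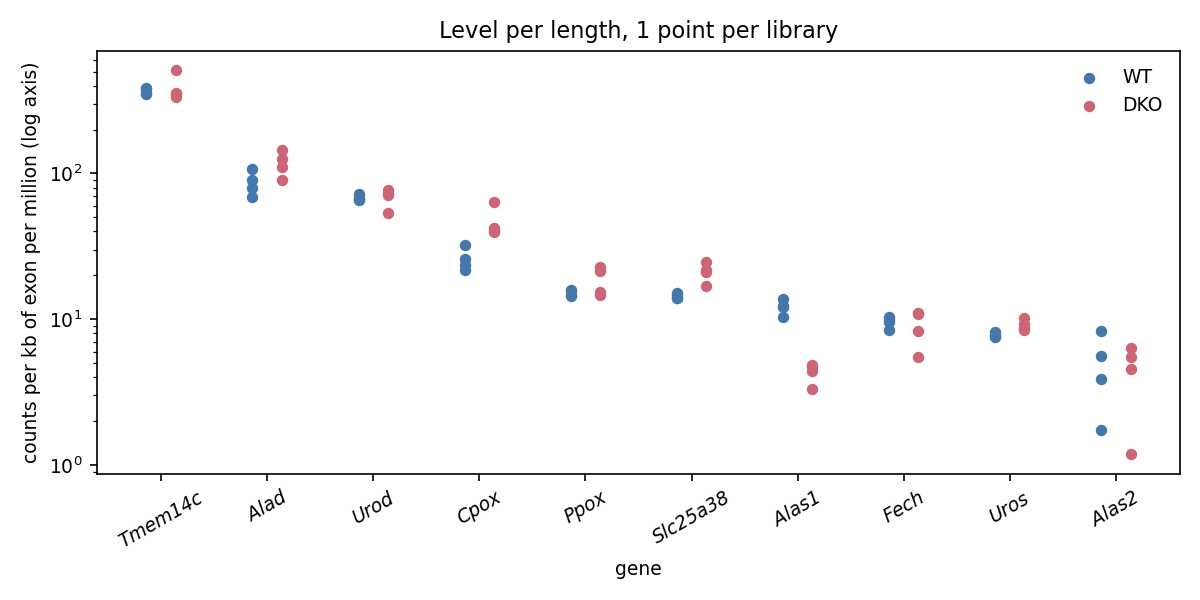
CPM per kilobase of exon (vertical, log axis) for the 9 heme genes and Alas1 (horizontal), with 1 point per WT (blue) or DKO (red) library. Tmem14c is highest at 367 in WT and 389 in DKO on average, Alas2 lies at 4.90 and 4.40, and Alas1 drops from 12.1 to 4.31.

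Across the 8 libraries the pattern of Alas2 lay nearer to the adult globins than to any other heme gene. The genes with the most similar pattern, by the root mean square difference of log2 normalized counts centred on each gene, included Hbb-bt (0.24) and Hba-a1 (0.28) at rank 1 and rank 2, and further down Trim10 (0.41), Epb42 (0.46), Tent5c (0.48), Sco2 (0.48) and Gp6 (0.50), among 11575 genes compared. Hbb-bt and Hba-a1 encode adult beta and alpha globin, and Epb42 a protein of the red cell membrane skeleton. The other adult globins Hbb-bs and Hba-a2 came at rank 12 and rank 16. The remaining 8 members had differences from 0.68 (Fech) to 1.07 (Cpox), and Fech too was lowest in WT replicate 3 and DKO replicate 2 within each group. Hbb-bt had 4715, 11037, 2001 and 7020 normalized counts across WT and 5836, 2046, 6312 and 11513 in DKO, low in WT replicate 3 and DKO replicate 2 like Alas2. These values describe 8 libraries of 2 genotypes, which share any difference in maturity or in the cells sorted, and near-identical globin copies can exchange reads.

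**Figure D3:**
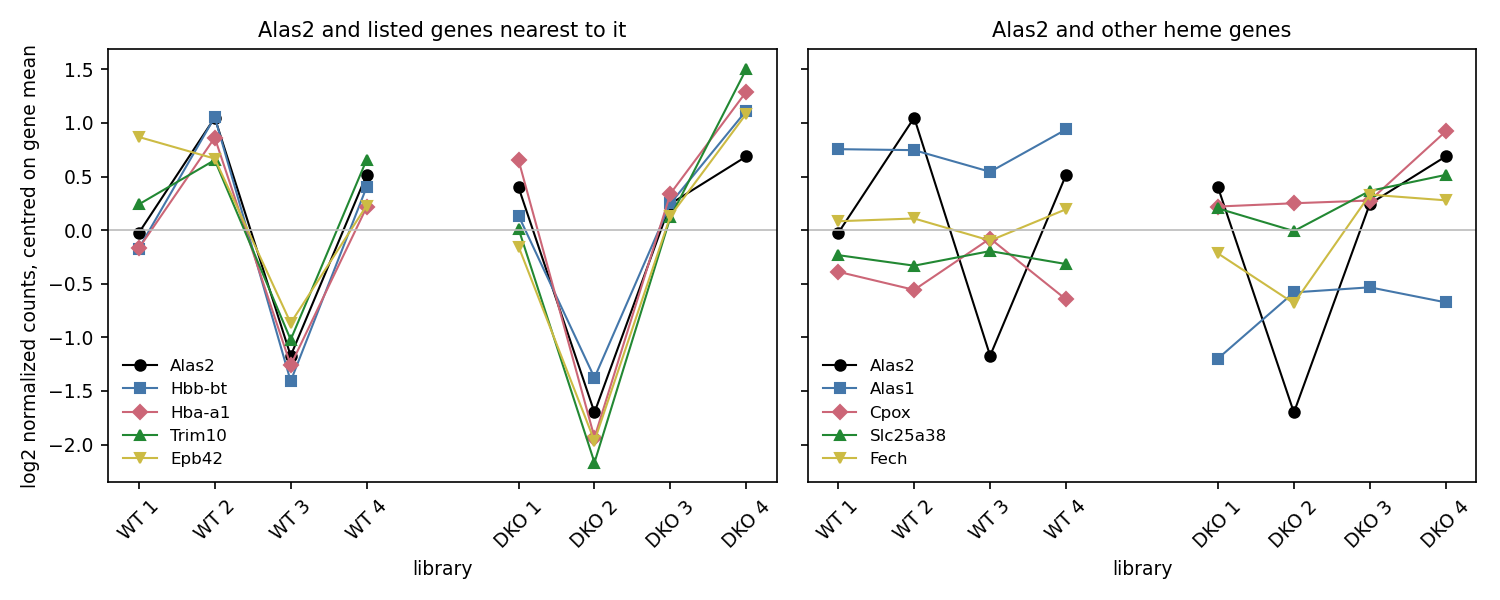
Log2 normalized counts centred on each gene's mean (vertical) in WT replicates 1 to 4 and DKO replicates 1 to 4 (horizontal, lines join libraries of one genotype as a guide only). Left, Alas2 with Hbb-bt, Hba-a1, Trim10 and Epb42, all lowest in WT replicate 3 and DKO replicate 2 within their group. Right, Alas2 with Fech, which is lowest in the same libraries over a smaller range, and with Alas1, Cpox and Slc25a38, which are not lowest in both.

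Genes that supply or regulate the pathway changed in both directions. Of 22 partners and regulators, 6 rose, 4 fell and 12 were not called, with a median log2 fold change of -0.04. Over all genes tested, 10.7% were called higher and 10.8% lower. Slc6a9, a glycine transporter of the plasma membrane, had 327 to 431 normalized counts across WT and 575 to 1484 in DKO (log2 fold change 1.41, SE 0.26, adjusted p = 0.00748). DKO replicate 3, the DKO library with the sex-linked pattern of WT, was the 575, above WT but far below the 969 to 1484 of the other DKO libraries, whose sex-linked transcripts differ from those of WT. In Slc6a9, 27.8% of the exon length is shared with Ccdc24 on the opposite strand. Slc25a28, the mitochondrial iron importer mitoferrin 2, had 274 to 423 in WT and 629 to 737 in DKO (log2 fold change 0.98, SE 0.17, adjusted p = 0.00606), with DKO replicate 3 at 629. The erythroid mitoferrin Slc25a37 had 882 to 1582 in WT and 950 to 1704 in DKO, with a log2 fold change of 0.05 (adjusted p = 0.898). Slc6a9, Slc25a28 and Alas1 were called with each of the 8 libraries left out, while the counts for the list ran from 3 to 6 higher and from 2 to 4 lower, the fewest without WT replicates 1, 2 or 4 (3 higher and 2 lower each). Clpx, the unfoldase that both activates the synthases and starts their turnover, had a log2 fold change of -0.03 (SE 0.09, adjusted p = 0.858). Clpp and Lonp1, of the same list, were called higher. Clpp had 5526 to 6628 in WT and 6499 to 8432 in DKO, highest in DKO replicate 3 (log2 fold change 0.38, adjusted p = 0.0283). Lonp1 had 3011 to 3692 in WT and 4571 to 8963 in DKO, with DKO replicate 3 at 4571 (0.86, adjusted p = 0.0159). With 1 library left out, the call held in 3 of 8 analyses for Clpp and in 5 of 8 for Lonp1.

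Of 12 genes for heme export, breakdown and sensing, 2 rose (Hmox1 and Blvrb) and 2 fell (Eif2ak1 and Hmox2). The shares over all genes tested were 10.7% higher and 10.8% lower. Hmox1, the inducible heme oxygenase that opens the heme ring, had 227, 209, 230 and 314 normalized counts across WT and 739, 1947, 265 and 2622 in DKO. DKO replicate 3 lay within the WT range and the other DKO libraries far above it. The log2 fold change was 2.51 (SE 0.59, adjusted p = 0.0172), and the adjusted p was 0.0591 without WT replicate 1 and 0.0556 without WT replicate 2. Blvrb, a biliverdin reductase abundant in red cells, had 4744 to 6690 in WT and 6737 to 11030 in DKO (log2 fold change 0.76, SE 0.17, adjusted p = 0.0133), highest in DKO replicate 3. Eif2ak1, the heme-regulated kinase that lowers translation when heme is scarce, had 5320 to 6365 in WT and 3785 to 4832 in DKO (log2 fold change -0.46, SE 0.10, adjusted p = 0.012), with DKO replicate 3 at 4832. Hmox2, the constitutive oxygenase, had 4142 to 4304 in WT and 2289 to 3656 in DKO, with DKO replicate 3 at 3231 (log2 fold change -0.48, SE 0.13, adjusted p = 0.0278), but the call was lost in 5 of 8 analyses that left out 1 library (each WT replicate, with adjusted p of 0.0782, 0.0778, 0.0536 and 0.0694, and DKO replicate 4, with 0.0673). The exporter Flvcr1 had a log2 fold change of 0.44 (SE 0.28, adjusted p = 0.296). Without WT replicate 1 or 2, 1 gene of this list was called higher and 1 lower.

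Fech carries an iron-sulfur cluster, and 2 of 14 genes for the assembly of such clusters rose while none fell (DESeq2 also gave 2 and 0). The shares over all genes tested were 10.7% higher and 10.8% lower. At an unadjusted p under 0.05, 5 genes of the list were higher and 2 lower, beside 3205 and 3100 of all 17378 genes tested. Glrx5, a mitochondrial glutaredoxin whose loss causes sideroblastic anemia, had 2225 to 2738 normalized counts across WT and 3221 to 4586 in DKO (log2 fold change 0.68, SE 0.12, adjusted p = 0.0065), highest in DKO replicate 3. Bola3 had 4175 to 4828 in WT and 4875 to 6623 in DKO (log2 fold change 0.36, SE 0.10, adjusted p = 0.0359), also highest in DKO replicate 3. Its call was lost in 7 of 8 analyses that left out 1 library and held only without DKO replicate 1, where 4 genes of the list were called higher. The largest adjusted p for Bola3 was 0.101, without WT replicate 2 or 4. Without DKO replicate 3, 1 gene of the list was called lower.

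**Figure D4:**
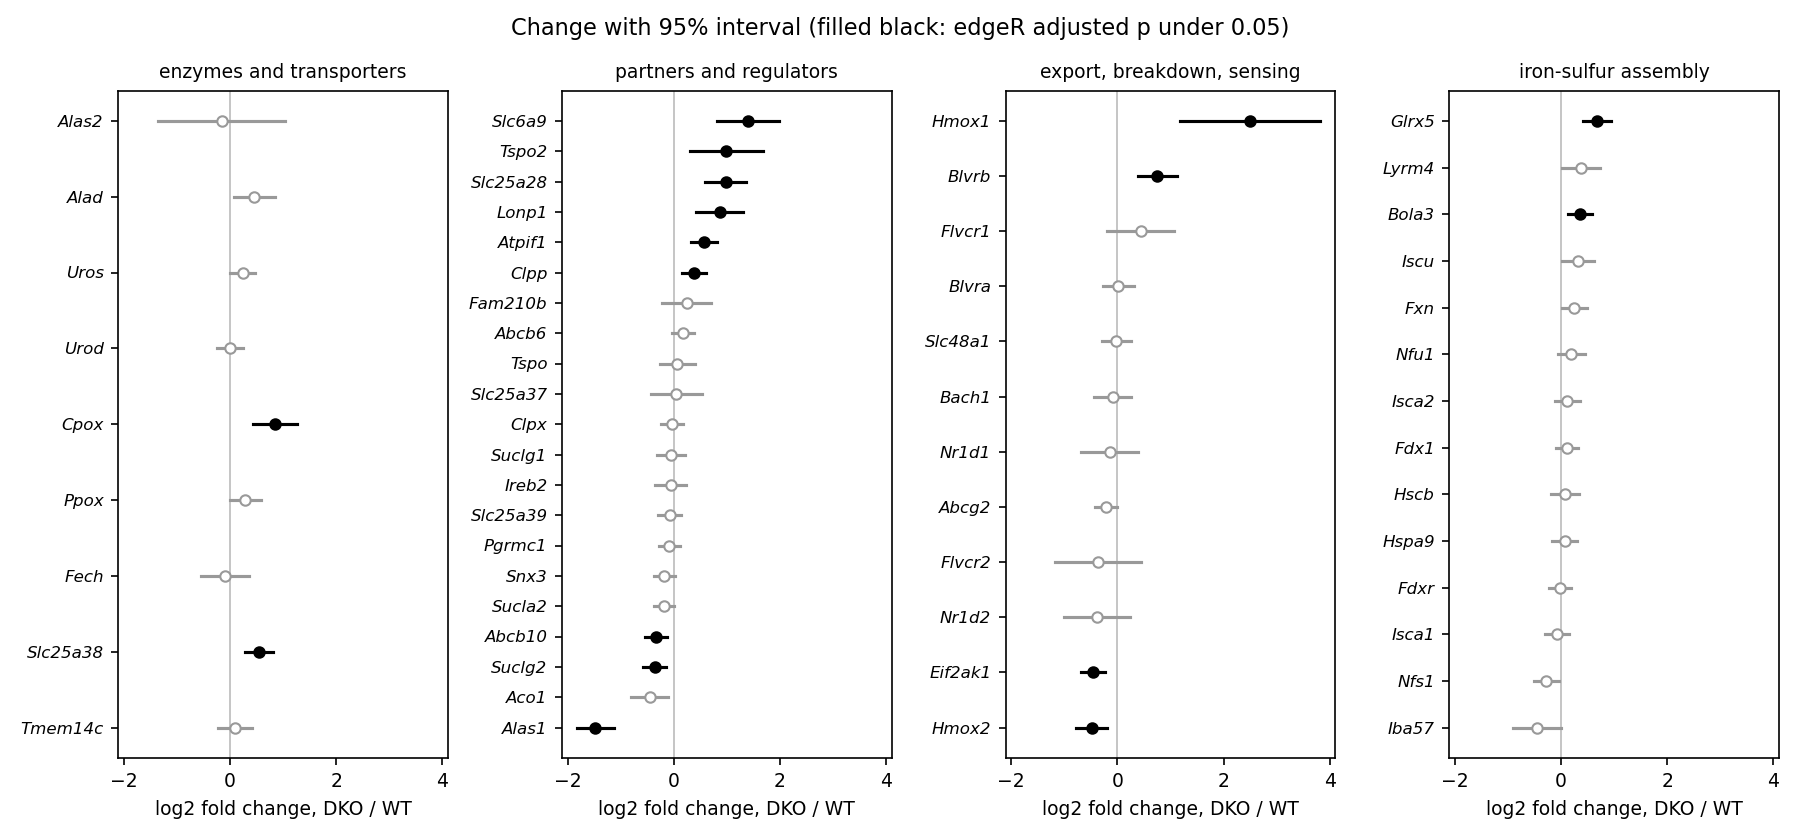
Log2 fold change of DKO against WT (horizontal) with its 95% interval for the 9 heme genes in pathway order with transporters last, and for partners and regulators, export, breakdown and sensing genes, and iron-sulfur assembly genes, each sorted by size. Filled black points are the genes called by edgeR, 2 of the 9 heme genes, 4 of 12 for export, breakdown and sensing and 2 of 14 for iron-sulfur assembly. Among all genes tested, 10.7% were called higher and 10.8% lower. The panel of partners leaves out 1 of the 22 genes.

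The cell types within the gate were read from marker lists, beside 10.7% of all genes tested called higher and 10.8% called lower. At an unadjusted p under 0.05, 3205 of all 17378 genes tested were higher and 3100 lower. Of 29 erythroid markers tested, 3 rose and none fell (DESeq2 3 lower, 3 lower at an unadjusted p under 0.05), and their summed level was 0.228% to 0.251% of all counts in WT and 0.176% to 0.290% in DKO. Klf1 and Gata1, the main erythroid transcription factors, had log2 fold changes of 0.06 and -0.10 (adjusted p = 0.857 and 0.687), and Tfrc, which encodes the CD71 used in the gate, 0.23 (adjusted p = 0.253). Epor rose by 0.47 on the log2 scale (SE 0.10, adjusted p = 0.0123), from 2235 to 2587 normalized counts over WT to 2948 to 3753 over DKO, with DKO replicate 3 at 3613. Of the 10 early progenitor markers 5 fell, and their sum was 0.113% to 0.139% in WT and 0.0579% to 0.0769% in DKO. Alas1 fell as well, as did markers of the neutrophil, macrophage and endothelial lists below, and a link between Alas1 and any of these lists was not tested. The median log2 fold change of the hepatoblast markers was -0.62. Of the 7 neutrophil markers tested 3 fell, Mpo, Elane and Ctsg, in a gate that removes cells with surface CD11b or Ly6G/Ly6C. The list summed to 0.230% to 0.299% in WT and 0.0128% to 0.0996% in DKO, with Ltf, Ngp and S100a9 at 0 in at least 1 library. Mpo had the most counts of this list, 91281 to 120802 normalized counts in WT and 3829 to 36256 in DKO (24386 in DKO replicate 3). S100a8, at means of 40.1 in WT and 110 in DKO, had a log2 fold change of 1.45 (adjusted p = 0.235). It was 1 of 2 tested markers with a value above 0, so the fall was not shared by the whole list. Of the 7 mesenchyme markers 6 rose (0.0047% to 0.013% in WT, 0.0271% to 0.106% in DKO). Hepatoblast markers made up 1.78% to 2.41% in WT and 0.547% to 2.07% in DKO, lowest in DKO replicate 3, the library with the highest Tmem14c, Alad and Fech counts. None of the 12 was called by edgeR, 4 were lower at an unadjusted p under 0.05, and DESeq2 called 4 lower. Macrophage markers summed to 0.011% to 0.0167% in WT and 0.00305% to 0.00976% in DKO, with 1 of 9 tested called lower and Adgre1, C1qa, C1qb, C1qc, Timd4 and Marco at 0 in at least 1 library. Endothelial markers (0.0287% to 0.0299% in WT, 0.0207% to 0.0332% in DKO) had 1 of 7 lower. Megakaryocyte markers (0.119% to 0.139% in WT, 0.0846% to 0.262% in DKO) had 0 of 7 called by edgeR or DESeq2, with 1 lower at an unadjusted p under 0.05. Of the 7 globins 2 were called higher, the embryonic Hbb-bh1 and Hba-x, and 5 were not, among them the embryonic Hbb-y (log2 fold change 1.82, SE 0.90, adjusted p = 0.18), which was lower in DKO replicate 2, at 1174 normalized counts, than in any WT library. Hbb-bh1 had 572.5 to 1809 in WT and 2135 to 12212.5 in DKO, with DKO replicate 3 at 6032. Hba-x had 815 to 2928 in WT and 1286 to 21881 in DKO, with DKO replicate 3 at 12547. Its lowest DKO value, in replicate 2, lay inside the WT range. Hba-x lost its call in 5 of 8 analyses that left out 1 library, with adjusted p of 0.0906, 0.073 and 0.0791 without WT replicates 1, 3 and 4, and 0.111 and 0.0509 without DKO replicates 1 and 3, which left 1 globin called in each. Several of these counts moved when 1 library was left out. Erythroid markers called higher were 1 without WT replicate 1, 2 or 4 or DKO replicate 4, and 8 without DKO replicate 2. Early progenitor markers called lower were 3 without WT replicate 1, 2 or 4 and 7 without DKO replicate 1 or 2. Neutrophil markers called lower were 1 when replicate 2 or 4 of WT, or replicate 2 or 3 of DKO, was left out. Hepatoblast markers called lower were 4 without DKO replicate 2 or 3, macrophage markers 0 without any of the WT replicates and 2 without DKO replicate 1, and megakaryocyte markers 1 without DKO replicate 4. The part of these shifts in the values of Cpox, Slc25a38 and Alas1 was not tested.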

How the data were processed

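RNAseq of S0 cells gave 4 WT and 4 DKO libraries, grouped by their labels. The authors trimmed reads with fastp 0.21.0, mapped them to mm10 (GRCm38) with HISAT2 2.2.1, removed alignments with a quality below 20, and counted reads per gene with StringTie 1.3.3b and prepDE. The deposited values are these whole-number counts, not normalized. prepDE works back from coverage, so totals can differ from read numbers, and the strand setting is not given in the sources used here. Whether a library is 1 embryo or a pool is not stated, so p-values measure the spread between these libraries only.

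Gene names, exon lengths and coordinates came from GENCODE vM21 (52403 of 52636 identifiers matched without version), and promoters from RefSeq (GRCm38.p6). In R 4.3.3, genes passing filterByExpr were scaled by TMM and compared with edgeR 4.0.16 (robust quasi-likelihood test, no covariate, Benjamini-Hochberg over all genes). SE is the log2 fold change over the root of F, and intervals are 95%. Alternatives were DESeq2 1.42.0, library size alone, upper-quartile scaling, no filter, 10 counts in every library, protein-coding genes, a replicate block, each library left out, and an adjusted p of 0.01. For the ratio of Alas2 to Alas1, 1 count was added as an alternative. Levels between genes are per merged exon length. The likeness to Alas2 used protein-coding genes with a mean of at least 100 normalized counts.

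The 9 members and the 12 other lists were chosen with earlier results of these data known. Named genes were the members, Alas1, the globins, up to 4 called genes per list with the smallest p, Klf1, Gata1, Tfrc, Slc4a1, the 8 genes nearest to Alas2, Vps13a and Vps13c, and some genes that this rule names are not reported here. Slc25a37, Clpx, Clpp, Lonp1, Flvcr1, S100a8 and the sex-linked genes were added after their values were seen. Ahsp, a listed erythroid marker, had no matching row. The steps were tested on simulated data with these library sizes over 17191 genes: of 100 genes changed by 1 on the log2 scale 39 were called, of 100 changed by 2 all 100, and of 16991 unchanged genes 7. Every simulated gene had the same biological coefficient of variation in both groups, 0.294, against a common value of 0.375 in the data. The wider spread of the DKO libraries was not simulated, so these rates do not describe groups of unequal spread. Libraries of one genotype differed by 17.5 or more in chi-square per gene, so none was a second copy.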

Additional observations from a re-analysis of the deposited data

Results flagged for a closer look

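In groups of 4 libraries, a sample was marked when its gap to the nearest other, as a share of the group's range, exceeded Dixon's 95% critical value. This marked 3 of the 20 groups examined for the 9 members and Alas1, where chance marks about 1 in 20. Uros in WT replicate 4 was at 1300.0 normalized counts, beside 1186.7 to 1201.1 in the other WT libraries. It sits just under the lowest DKO library, so that it decides how narrowly the groups are separated. Cpox in DKO replicate 4 was at 18898.5, beside 11621.0 to 12083.2 in the other DKO libraries, and without it Cpox was still called, with a log2 fold change of 0.65. Tmem14c in DKO replicate 3 was at 21141.0, beside 13467.1 to 14429.9 in the other DKO libraries.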

How the results depend on the processing

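The calls of Cpox and Slc25a38 were kept in all 15 alternatives at an adjusted p under 0.05, but at 0.01 the number of members higher was 0. Upper-quartile scaling gave 4 members higher and 1242 genes lower, and 66.7% of its calls were higher against 49.9% with TMM. With the replicate block, 1026 genes were higher and 1083 lower, and the members called were again Cpox and Slc25a38 (adjusted p = 0.0432 and 0.0364). No pairing of the libraries by replicate number was seen. Same-numbered deviations correlated at -0.18, 0.15, -0.08 and 0.01 over 12339 genes, and differently numbered ones at -0.244 to 0.23. The deviations were centred within groups of 4 libraries, so this check cannot exclude a batch shared by number. The ratio of Alas2 to Alas1 under the pairing by number gave p = 0.25 (exact sign-flip test over 4 pairs). Leaving out 1 library moved all genes higher between 858 (without WT replicate 1) and 1915 (without DKO replicate 1), and genes lower between 898 and 2012 for the same libraries. The counts were also more than 1.5 times below the full ones without WT replicate 2 (1011 and 1050) and without WT replicate 4 (948 and 957), and the cause was not tested. Signs turned only in members that were not called. With 1 library left out, log2 fold changes ran from -0.44 to 0.22 for Alas2, -0.069 to 0.10 for Urod, -0.23 to 0.07 for Fech and -0.083 to 0.16 for Tmem14c. Urod was at -0.021 without a filter, -0.007 with the block and -0.006 with DESeq2, and Fech at 0.015 under upper-quartile scaling. The spread between libraries, not counting error, limits the precision: for Alas2 a 2-fold change would lie inside the interval.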
